A study of Zea mays with 4 samples.

Results

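The genes described here are 119 maize IDs whose transcript counts in an A188 x B73 hybrid lay around 2-fold below those of the inbred line B73, relative to the median gene. They were chosen by their measured hybrid to B73 ratio. An ID that begins with Zm00001d was eligible if it had 10 or more counts in each of 4 libraries and was not among the 50 most abundant such IDs. For each pair of libraries with the same code, the log2 ratio of hybrid to B73 CPM (the count as a share of the library total, scaled so that a library sums to 1000000) was taken minus its median over the 970 IDs of any kind with 10 or more counts in every library. This difference is called the centred log2 ratio below. Members had a centred log2 ratio from -1.5 to -0.5 in both pairs. They are 119 of the 829 eligible IDs (14.4%) and of the 22525 IDs in the table.

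The libraries came from whole V3 seedlings of maize (Zea mays), including the roots, raised in a greenhouse. The labels give no treatment for either group. B73 is the inbred line from which the maize reference genome was built, and 2 libraries were made from it. The other 2 came from a cross of the inbred line A188 with B73, which the labels give both as an F1 and as HiII. Each genotype had a library coded RPI10 and a library coded RPI11, and no label says whether the codes stand for separate plants or pools. P-values between libraries therefore measure only the spread between these samples, which may be technical. A188 itself is not among the samples used here, so no mid-parent level can be set beside the hybrid.

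An F1 hybrid inherits an allele of each nuclear gene from each parent. Where the alleles act independently, the level in the hybrid falls midway between the parents, which is called additive expression. Maize inbred lines also differ in gene content, so that a gene of one parent can be absent or silent in the other. These are facts about maize hybrids in general, and none of the counts below separates the alleles. The labels name these plants both as an F1 and as HiII, so they do not settle whether the description of an F1 applies.

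No member could be given a gene name or a function: in RefSeq annotation of Zm-B73-REFERENCE-NAM-5.0, 0 of the 829 eligible IDs were found. IDs are therefore printed as deposited, without coordinates or sequences. The members are named by position in their own distribution: the most abundant, those nearest a 2-fold difference, those at the bounds, and those that differed between codes.

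Depth ran with genotype. With RPI10 the totals were 275271 counts for B73 and 1341976 for the hybrid, and with RPI11 they were 403858 and 883812. A single count was worth 3.63 and 2.48 CPM in B73, and 0.745 and 1.13 CPM in the hybrid. The 50 most abundant Zm00001d IDs took from 64.5% to 68.3% of the counts of each library. Of 10 symbols listed as markers of green tissue, 4 were in the table, namely CAB1, FDX2, psbA and psbC. Together they had 9438 and 5601 CPM in B73 and 24407 and 14289 CPM in the hybrid, with none of the 4 at 0. Their sum was thus higher in both hybrid libraries, most of it psbC. CAB1 and FDX2 were also higher in both, whereas psbA had 392.3 and 379 CPM in B73 and 400.2 and 376 CPM in the hybrid. The part of tissue makeup in the ratios below was not tested. In whole seedlings, fewer cells of a type and less RNA per cell cannot be told apart.

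The members were a small part of each library. Summed over all 119, they had 12050 CPM in the RPI10 library of B73 and 12680 CPM in the RPI11 library. In the hybrid the sums were 4421 and 4743 CPM. On this scale the hybrid libraries lay close together and well below both B73 libraries, as the choice of members requires. In counts the sums were 3317 and 5121 in B73 against 5933 and 4192 in the hybrid. With RPI10 all 119 members had more raw counts in the hybrid than in B73, which the depth of that hybrid library fixes for any ID in the band. With RPI11, 13 had more, 13 had equal counts and 93 had fewer.

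Within the band the members spread over most of its width. The centred log2 ratio, averaged over both codes, ran from -1.47 to -0.53 with a median of -0.90, which is 0.537 of the B73 level. The middle members, from the lower to the upper quartile, lay between -1.03 and -0.74. By code, the median was -0.82 with RPI10 and -0.91 with RPI11. Of the 119, 24 lay within 0.25 of -1 in both codes. These values chose the members and carry no test.

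**Figure D1:**
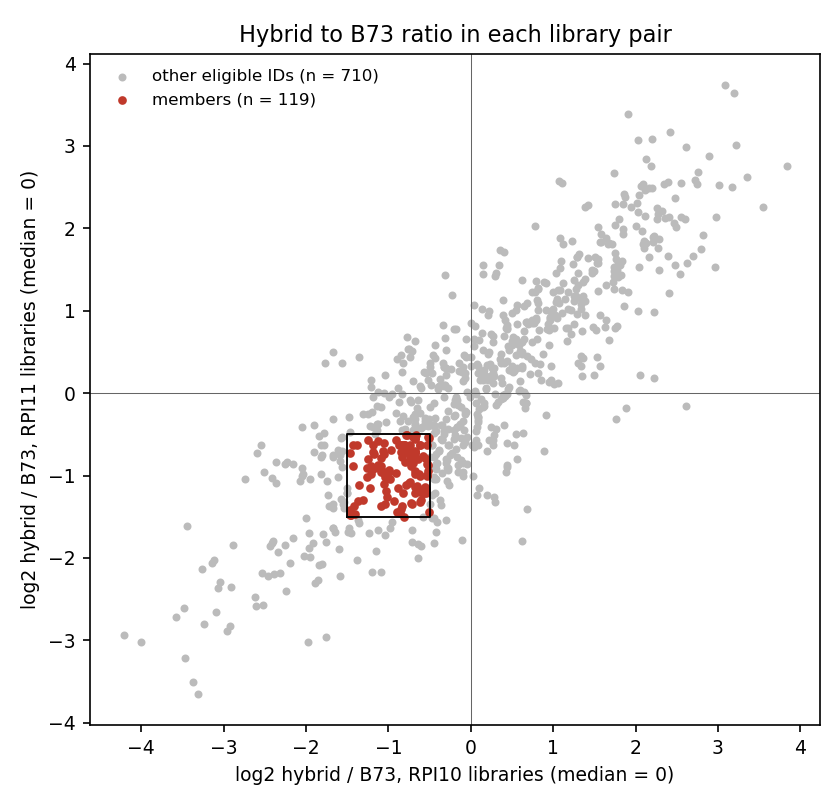
Each point is an eligible ID, with its centred log2 ratio of hybrid to B73 in the RPI10 libraries (x axis) and in the RPI11 libraries (y axis); members are red and the square is the band from -1.5 to -0.5. The 119 members sit in a continuous cloud of 829 IDs, with no gap at the edges of the square.

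The band was not a separate group of genes. Of the 829 eligible IDs, 209 were in the band in 1 code and outside it in the other. Another 125 IDs lay within 0.5 of the median in both codes, 89 lay from 0.5 to 1.5 above it in both, 53 lay under -1.5 in both and 91 over 1.5 in both. The values at the bounds show how close the cut runs. Zm00001d013428 and Zm00001d022856 were the members nearest the upper bound, tied at a centred log2 ratio of -0.51 in RPI10. In RPI11 the first had -1.44 and the second -0.55. Zm00001d004057 was the nearest ID outside it, with -1.16 in RPI10 and -0.498 in RPI11. At the lower bound, Zm00001d041105 was just inside with -0.81 and -1.499, and Zm00001d017985 was just outside with -1.505 and -1.22.

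The most abundant member was Zm00001d028198. It had 712 CPM in B73 with RPI10 and 1466 CPM with RPI11, against 284 and 582 CPM in the hybrid (196, 592, 381 and 514 counts in that order). As mean ± SD of 2 libraries this is 1089 ± 533 CPM for B73 and 433 ± 210.5 CPM for the hybrid. The RPI11 library was the higher within each genotype. On CPM of library totals the genotypes did not overlap, as in all 119 members. On the TMM scale described below they did, with the RPI11 library of the hybrid above the RPI10 library of B73. The centred log2 ratio was -0.72 in RPI10 and -0.84 in RPI11.

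Zm00001d002325 came next. It had 879 and 1164 CPM in B73 and 308 and 422 CPM in the hybrid, with RPI10 first in each pair. The centred log2 ratio was -0.90 in RPI10 and -0.97 in RPI11, so both pairs of libraries gave nearly the same value. With 242 and 470 counts in B73 and 413 and 373 in the hybrid, this member and Zm00001d028198 rest on the most counts of all 119.

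Zm00001d001088 had 574 and 560 CPM in B73 and 257 and 178 CPM in the hybrid. The B73 libraries were close together, whereas the hybrid libraries were not, and the centred log2 ratio moved from -0.55 in RPI10 to -1.16 in RPI11. Zm00001d051485 had 385 and 300 CPM in B73 and 161 and 97.3 CPM in the hybrid. It too had its lower ratio in RPI11, with -0.65 in RPI10 and -1.13 in RPI11. For neither ID did the hybrid libraries reach the B73 range.

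Zm00001d018868 was both among the 5 most abundant members and among the 5 nearest to a 2-fold difference. It had 334 and 480 CPM in B73 and 107 and 175 CPM in the hybrid. Its centred log2 ratio was -1.04 in RPI10 and -0.96 in RPI11, a mean of 0.501 of the B73 level. The CPM was higher in RPI11 in each genotype. The ratio hardly moved, which follows from choosing IDs nearest to a 2-fold difference in both codes.

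The other 4 IDs nearest to a 2-fold difference were much less abundant. Zm00001d028915 had 90.8 and 86.7 CPM in B73 and 29.8 and 31.7 CPM in the hybrid. Zm00001d037877 had 116 and 99.0 CPM in B73 and 38.7 and 33.9 CPM in the hybrid. In both, the libraries of a genotype lay close together and far from those of the other genotype. Zm00001d006510 had 47.2 and 47.0 CPM in B73 and 14.9 and 17.0 CPM in the hybrid. Zm00001d029393 had 40.0 and 42.1 CPM in B73 and 12.7 and 14.7 CPM in the hybrid. The last of these rests on 11 and 17 counts in B73 and 17 and 13 in the hybrid, and the next paragraphs give what such counts allow.

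**Figure D2:**
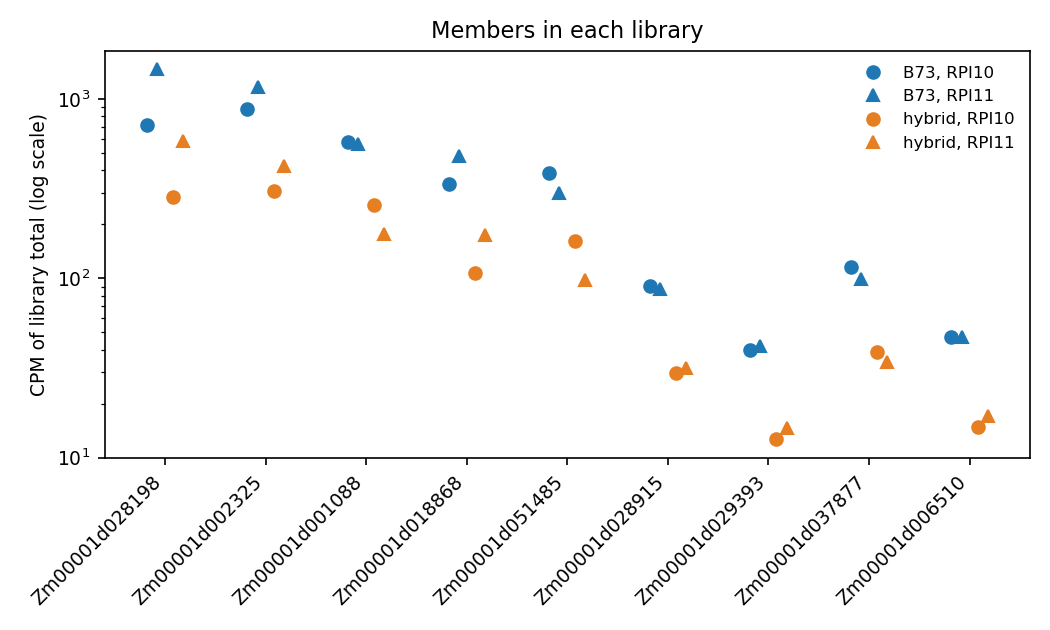
CPM of the library total (log scale) for the 5 most abundant members and the 5 nearest to a 2-fold difference, 9 IDs in all since Zm00001d018868 is both; circles are RPI10 and triangles RPI11 libraries, blue is B73 and orange the hybrid. In every ID both hybrid points lie below both B73 points, and in Zm00001d028198, Zm00001d002325 and Zm00001d018868 the RPI11 point lies above the RPI10 point within each genotype.

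Counting error set how well a member could be placed within the band. The 95% interval of a ratio was computed from the exact Clopper-Pearson interval of the hybrid share of the counts in a pair, and it covers counting error only. For the most abundant member, Zm00001d028198, it ran from -0.97 to -0.46 in RPI10 and from -1.01 to -0.66 in RPI11. For Zm00001d029393 it ran from -2.23 to 0.19 in RPI10 and from -2.18 to 0.11 in RPI11, so that the interval includes the median gene.

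Over all members the median width of this interval was 1.81 on the log2 scale in RPI10 and 1.84 in RPI11, wider than the band itself. The interval lay wholly within the band in both codes for 2 of the 119. It lay wholly below 0, the median gene, for 51 members in RPI10, 64 in RPI11 and 35 in both. Over the 829 eligible IDs these numbers were 201, 202 and 126. The intervals are built on the ratios that chose the members, so they describe the precision of each ratio and test nothing.

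Precision followed abundance. Of the members, 23 had a mean over 100 CPM in B73, 36 had 60 to 100 CPM and 60 had less. The interval had a median width of 1.04, 1.64 and 2.19 in the same order. The median centred log2 ratios of these tiers were -0.91, -0.86 and -0.90, within the limits that the rule sets. It lay below 0 in both codes for 20 of the 23 most abundant members, 9 of the 36 and 6 of the 60.

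**Figure D3:**
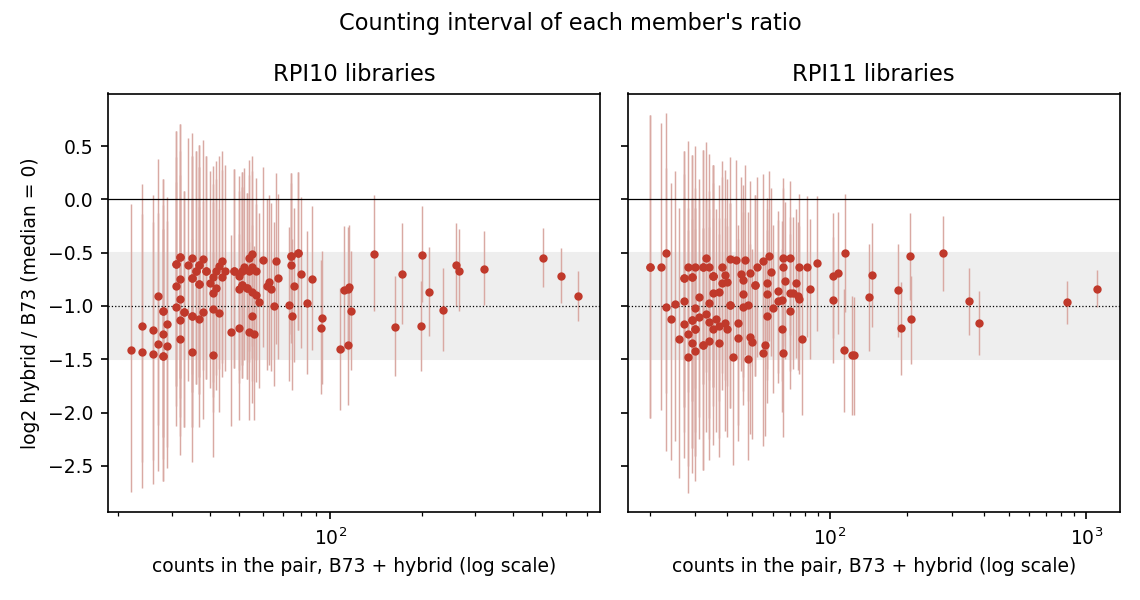
Centred log2 ratio of each of the 119 members (y axis) against the counts of B73 and hybrid summed for that pair (x axis, log scale), for the RPI10 libraries on the left and the RPI11 libraries on the right; bars are 95% Clopper-Pearson counting intervals, the grey area is the band and the dotted line is a 2-fold lower level. Bars narrow to the right, and only the members with the most counts have bars inside or nearly inside the grey area.

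Members were more frequent among the IDs with a low mean CPM over the 4 libraries. When the 829 eligible IDs were ordered by mean CPM of the 4 libraries, 66 of the 277 with the lowest levels were members (23.8%), 34 of the next 276 (12.3%) and 19 of the 276 with the highest levels (6.88%). The first of these groups ended at 44.8 CPM. Mean CPM includes the hybrid libraries, in which members are low by choice, and the level in B73 alone differed less. The median B73 level was 59.4 CPM over the members and 66.6 CPM over the eligible IDs. In 83 members the smallest of the 4 counts was in the RPI10 library of B73, the shallowest, and in 75 it was under 20. Over the 829 eligible IDs these numbers were 564 and 524. As shares they were close to those of the members, so neither number sets the members apart.

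How far below B73 the members lie depends on the scale. On CPM of library totals, without centring, their median level in the hybrid was 0.366 of that in B73, and all 119 had both hybrid libraries below both B73 libraries. This arrangement held for 56.7% of the eligible IDs on the same scale, and it is read only as a description, since the rule used these libraries. With edgeR's trimmed mean of M-values (TMM), the median was 0.604 of B73 and 105 members had no overlap, against 35.2% of the eligible IDs. With DESeq2 size factors the median was 0.629. The median log2 differences from B73 were -1.45 (totals), -0.90 (centred), -0.73 (TMM) and -0.67 (DESeq2). Each scaling shifts all IDs alike, and no shift was large enough to carry a member of the band past 0.

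**Figure D4:**
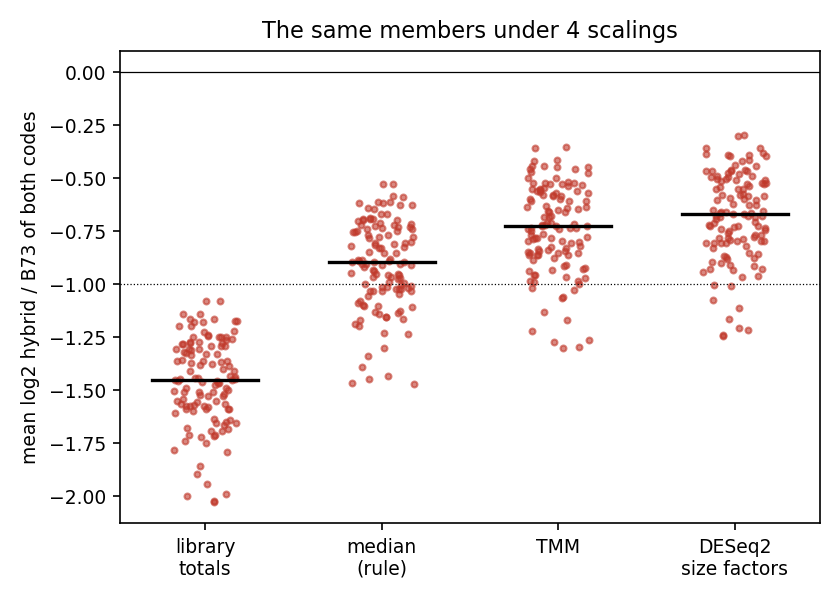
Mean log2 ratio of hybrid to B73 over both codes for the same 119 members under 4 scalings (library totals, the median used by the rule, TMM and DESeq2 size factors); bars are medians and the dotted line is a 2-fold lower level. The medians are -1.45, -0.90, -0.73 and -0.67, and every point is below 0.

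The median gene used for centring moved with the minimum count. It lay at -0.61 (RPI10) and -0.50 (RPI11) on the log2 scale of library totals over the 970 IDs with 10 or more counts. Over the 2237 IDs with 5 or more counts it lay at -0.92 and -0.74, and over the 425 IDs with 20 or more at -0.10 and 0.04. The band moved with it. With a minimum of 5 counts it held 212 IDs, of which 42 were among the 119. With a minimum of 20 it held 56, of which 18 were among the 44 members that still had enough counts. Without the RPI10 library of B73, with the band required of the ratios that were left, it held 186 IDs, of which 77 were among the 119. The label of a 2-fold lower level thus holds for these IDs relative to the median of the 970, and not on every scale.

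A count of members called lower in the hybrid is given for completeness, because the rule used the same contrast and nothing can be read from it. The edgeR quasi-likelihood test on all 4 libraries, with TMM scaling and Benjamini-Hochberg adjustment over the 3282 IDs tested, called 8 of the 119 members lower (6.72%). It called 25.4% of all IDs tested lower, and 12.4% of the eligible IDs. The 8 had mean centred log2 ratios from -1.47 to -1.13, in the lower part of the band. The lowest was Zm00001d033855, with 69.0 and 66.9 CPM in B73 and 16.4 and 17.0 CPM in the hybrid. With library totals in place of TMM the test called all 119, and 331 of the 829 eligible IDs. With 10 or more counts required in every library it called 63 members and 193 of the 829. DESeq2 called 0 members, with 0 at an unadjusted p under 0.05, and 30 of the 829. With the edgeR test, 21 members had an unadjusted p under 0.05. When the RPI code was added as a replicate block, edgeR called 39 members and 151 of the 829 eligible IDs lower. Without 1 library, edgeR called 1 member lower (B73 RPI10 left out), 2 (B73 RPI11) or 3 (either hybrid library).

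The difference between the RPI codes is a measure that the rule did not use, since it took ratios of genotypes within each code. The rule does bound how far that difference can part between the genotypes: the centred ratios of a member cannot differ by more than 1 between codes. In the edgeR quasi-likelihood test with genotype as a term, 1 of the 119 members (0.840%) differed between codes at an adjusted p under 0.05. Of all IDs tested 3.29% did, and of the eligible IDs 4.46%. Over the members, 10 had an unadjusted p under 0.05. The share of members called was below both backgrounds, and the difference was not tested. Over all IDs, 37 calls were higher in RPI11 and 71 lower, so both directions occurred and lower was the more frequent.

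The member called was Zm00001d028198, the most abundant. It rose by 1.03 on the log2 scale from RPI10 to RPI11 (SE 0.20, edgeR adjusted p = 0.00390), in both genotypes. Its level was 1466 against 712 CPM in B73 and 582 against 284 CPM in the hybrid. DESeq2 also called it (adjusted p = 0.00315), and over the edgeR fits with genotype as a term its adjusted p ran from 0.000265 to 0.121. With 10 or more counts required in every library, edgeR called no member (Zm00001d028198, adjusted p = 0.121), and 15 members had an unadjusted p under 0.05. Without genotype as a term edgeR called 0, also with 0 at an unadjusted p under 0.05.

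The next member by p-value was Zm00001d027756, which did not pass the threshold. It had 142 and 57.0 CPM in B73 and 40.2 and 20.4 CPM in the hybrid (log2 difference of RPI11 from RPI10 -1.16, SE 0.32, edgeR adjusted p = 0.0504). It was lower in RPI11 in both genotypes, the opposite of Zm00001d028198. It passed in edgeR when scaled by DESeq2 size factors (adjusted p = 0.0277) or by library totals (edgeR adjusted p = 0.0300). Over the edgeR fits with genotype as a term its adjusted p ran from 0.0277 to 0.239.

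**Figure D5:**
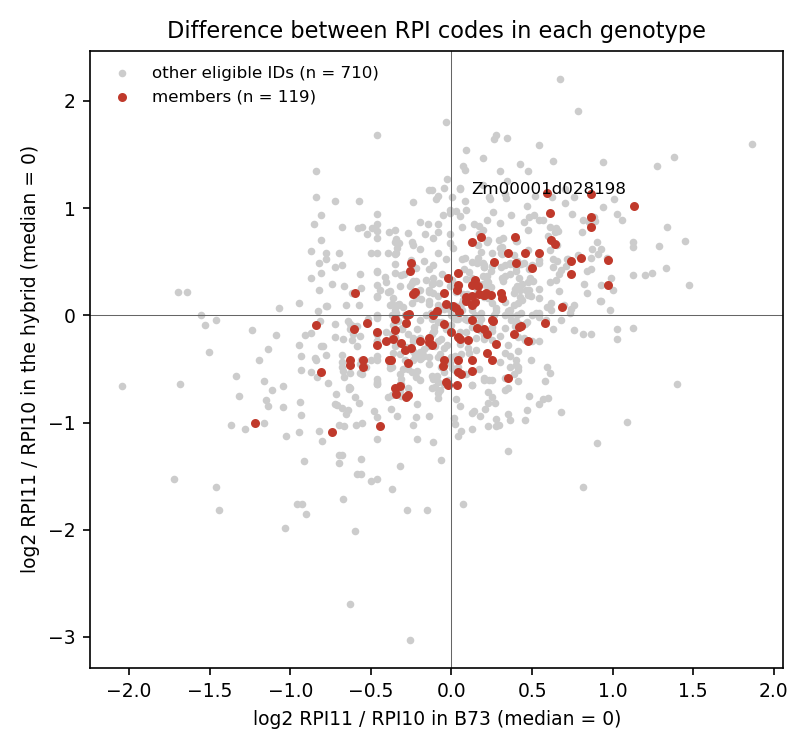
Log2 ratio of RPI11 to RPI10 CPM, minus its median over the 970 IDs, in B73 (x axis) and in the hybrid (y axis) for the 119 members (red) and the other 710 eligible IDs (grey). The members crowd around 0 along the diagonal, which the rule favours, and Zm00001d028198 lies farthest to the right of them.

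Libraries of the same genotype differed little for most members. The absolute log2 ratio of RPI11 to RPI10, centred on the same 970 IDs, had a median of 0.26 in B73 and 0.28 in the hybrid. Among the 125 IDs near the median ratio it was 0.39 and 0.35, and among the 89 IDs from 0.5 to 1.5 above it 0.33 and 0.33. These comparison groups have the same width in both codes, so the rule narrows them in the same way. No test was made of these differences. Relative to counting noise alone, for which the mean chi-square per ID would be 1, members had 2.01 in B73 and 2.89 in the hybrid. The eligible IDs had 2.43 and 13.1, the IDs near the median ratio 1.43 and 2.92, and those from 0.5 to 1.5 above it 2.60 and 13.9. For the same relative spread this value grows with the counts, so it does not compare the groups. Median counts in the hybrid (RPI10, RPI11) were 32 and 19 for members and 55 and 37 for the eligible IDs. They were 55 and 34 near the median ratio, and 147 and 98 from 0.5 to 1.5 above it.

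The ratios of a member also differed between codes. In 59 members they lay within 0.25 of each other. The same held for 63 of the 125 IDs near the median ratio and 60 of the 89 IDs from 0.5 to 1.5 above it. As a share, the members were thus no closer between codes than either of these groups of the same width. It held for 269 of the 829 eligible IDs, which no such width bounds. These differences were not tested. The ratio was lower in RPI10 for 55 members and lower in RPI11 for 64. The 2 members that differed most were Zm00001d013428 and Zm00001d022995. The first had 87.2 and 104 CPM in B73 and 40.2 and 27.2 CPM in the hybrid, with the hybrid lower in RPI11 and B73 higher there. The second had 40.0 and 24.8 CPM in B73 and 9.69 and 11.3 CPM in the hybrid, the reverse pattern, on counts of 10 to 13 per library.

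Some IDs left out by the rule had the same ratio. Of 34 IDs kept from the older GRMZM naming with enough counts, 6 were in the band (17.6%), beside 14.4% of the eligible IDs. Of the 50 most abundant Zm00001d IDs, 49 had enough counts and 1 was in the band. This was Zm00001d031168, with 2078 and 2486 CPM in B73 and 842 and 956 CPM in the hybrid, and centred log2 ratios of -0.69 and -0.88. Of 58 gene symbols with enough counts, 3 were in the band. MNB1B, a chromatin protein of the high mobility group, had 283 and 352 CPM in B73 and 92.4 and 100.7 CPM in the hybrid. RPS4, the symbol of a ribosomal protein, had 58.1 and 52.0 CPM in B73 and 20.9 and 15.8 CPM in the hybrid. TUBA6, an alpha tubulin of the microtubules, had 40.0 and 44.6 CPM in B73 and 9.69 and 19.2 CPM in the hybrid. Both hybrid libraries lay below both B73 libraries for each of these 4 IDs. The IDs were picked by ratios of the same libraries, and 56.7% of the eligible IDs had this arrangement on library totals. Reads of near-identical family members may be shared or split between copies in TUBA6.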

How the data were processed

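RNA was counted in 4 libraries, 2 of B73 and 2 of the hybrid, per the labels. A modified CEL-Seq2 method was used, per the labels' protocols, with a unique molecular identifier in read 1. The submitters' processing notes name CASAVA 1.4, HISAT2, UMI-tools and the build B73 RefGen_v4, and the counter and annotation are not given in the sources used here. The build is of B73. Whether reads of A188 alleles align to it as well as reads of B73 alleles was not tested. The authors deposited whole-number counts per ID, with no normalization. CPM, ratios and intervals were computed from these counts. Counts were tested across all IDs with edgeR 4.0.16 (filterByExpr with its minimum of 10, TMM, quasi-likelihood test, adjusted p under 0.05) and DESeq2 1.42.0 in R 4.3.3. Standard errors were derived from the fold change and its F statistic. The fits were tested on simulated data with larger changes than those of the members, so that run does not cover differences of this size. Named IDs are the 5 most abundant members, the 5 nearest -1, those at each bound (with a tie), those called between codes, the 2 that differ most between codes, and left-out IDs in the band. Zm00001d027756, Zm00001d033855 and the IDs under other observations were chosen after their values were seen. The members and lists were chosen with earlier results of these data known. Classes by gene description were not run, since no member has a description here.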

Additional observations from a re-analysis of the deposited data

How the results depend on the processing

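The number of IDs in the band was 119. It was 91 with TMM, of which 71 were members, and 163 with library totals, of which 44 were members. It was 77 with DESeq2 size factors (51 members), 56 and 212 with minimum counts of 20 and 5, 24 with a band 0.5 wide around -1, and 62 when all 4 ratios of a hybrid to a B73 library had to lie in it. Without each library in turn it ran from 137 to 186, the highest without the RPI10 library of B73 (77 members). Members called lower numbered 8, and eligible IDs 103 of 829. Of the 829 eligible IDs, 331 were called with library totals, 193 with 10 or more counts in every library and 44 without a filter. There were 30 with DESeq2 and 51 at a threshold of 0.01. Members called lower were 119 with library totals and 63 with 10 or more counts in every library. They were 0 without a filter (2 at an unadjusted p under 0.05), 0 with DESeq2 (0 unadjusted) and 0 at a threshold of 0.01. Without each library in turn there were 1 to 3, with the lone library assumed to vary like the others. A replicate block for the RPI code gave 39. Deviations of same-coded libraries had a correlation of 0.451 over 970 IDs, so libraries of a code shared part of their variation. The common dispersion, edgeR's estimate of spread between libraries, was 0.0699 without the block and 0.0230 with it. No label says what the codes mark, and the main test did not pair the libraries by code. Members called between codes numbered 1, against 3 when edgeR used DESeq2 size factors, 2 with library totals, and 0 with 10 or more counts in every library or with no genotype term. Leaving out a library left no residual degrees of freedom there, so no such calls were made. The median B73 level of 59.4 CPM became 49.3 with TMM and 105.3 for members with 20 or more counts, and 61.8 to 61.9 without a B73 library. The median differences between same-genotype libraries moved by less than 0.1. The 12 named members gave 84 values under other settings: 36 moved within the spread between codes, 48 by more, and 0 changed sign. The rule kept members at or below -0.5 in both codes, so the lack of sign changes is description only. The causes of these shifts were not tested, except that fewer IDs pass higher minimum counts. In 75 of the 119 members the smallest of the 4 counts was under 20, which limits how well they can be placed.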

Other observations

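The members Zm00001d000522, Zm00001d000523 and Zm00001d000524 have consecutive ID numbers and were picked out after their values were seen. Zm00001d000522 had 211 and 245 CPM in B73 and 84.9 and 96.2 CPM in the hybrid. Zm00001d000523 had 76.3 and 59.4 CPM in B73 and 33.5 and 24.9 CPM in the hybrid. Zm00001d000524 had 320 and 327 CPM in B73 and 132 and 163 CPM in the hybrid. Averaged over both codes, the hybrid had 0.584, 0.630 and 0.666 of the B73 level relative to the median gene, in the same order. These were the only pairs of members with consecutive numbers, 2 pairs of the 31 among the eligible IDs. Neither the position of these IDs in the genome nor shared reads between them could be read from the table, and no member had the same 4 counts as another ID.

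Of the 6 GRMZM IDs in the band, GRMZM5G884538 was the most abundant, with 345 and 213 CPM in B73 and 107 and 93.9 CPM in the hybrid. None of the 6 matched the RefSeq gene table.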
